A study of Mus musculus with 9 samples.

Results

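The 4 Hox clusters hold the genes that give the body its head-to-tail pattern, and their DNA methylation was described here in germ cells with and without Tet1. The 38 genes taken as members, Hoxa2 to Hoxd13, lie in 4 spans of the mouse genome (build mm9). They are HoxA at chr6:52100000-52220000 with 10 genes, HoxB at chr11:96050000-96232000 with 10, HoxC at chr15:102748000-102870000 with 9 and HoxD at chr2:74500000-74610000 with 9. The spans cover 534 kb. They held 5105 CpG sites with a read in both deposited tables, of 11380646 such sites in the whole data set, with 1305 in HoxA, 1545 in HoxB, 1158 in HoxC and 1097 in HoxD. The choice of sites used positions and coverage only, not methylation. The 500 kb on each side of each span, with 23997 such sites in all, served as the control region.

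Whole-genome bisulfite sequencing reads a methylated cytosine as C and an unmethylated one as T, without separating 5-methylcytosine from its oxidised form 5-hydroxymethylcytosine. It was applied to primordial germ cells, the embryonic precursors of eggs and sperm, taken at embryonic day 13.5 from female C57BL/6 embryos. The groups were wild type (WT, 4 libraries from 1575 to 5251 cells) and Tet1 -/- (written Tet1-null, 5 libraries from 1400 to 4700 cells). All embryos thus shared strain, sex and age, and the labels do not say how the Tet1 allele was made, how the cells were sorted or whether libraries came from separate embryos. The libraries of each genotype had been pooled into 1 table, so no value below has a replicate check. Reads were counted at each CpG they cover, so a read over several CpGs enters several times and every count of reads below is a sum over CpG sites. Neighbouring CpGs are therefore not independent, and intervals can be too narrow and Fisher p-values too small. Intervals are 95% and cover counting error only, and every comparison is between 2 pools of reads rather than between genotypes.

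Hox genes encode homeodomain transcription factors. In each cluster they stand in the order in which they are used along the body axis, from the anterior genes of paralog groups 1 to 3 through the central groups 4 to 8 to the posterior groups 9 to 13. Many of their promoters lie in CpG islands, which in most cells stay unmethylated and, where the genes are silent, carry the Polycomb mark H3K27me3. The germline erases most of its methylation by this stage. Tet1 is a dioxygenase that oxidises 5-methylcytosine and is known to bind CpG-rich promoters.

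The RefSeq promoter table (GRCm38.p6) held 24 promoter sequences for 22 of the 38 genes. Across its 300 bases the median Hox promoter had 14.5 CpGs and a GC content of 57.7%, beside 7 CpGs and 53.0% over all 32619 promoters in the table. At least 20 CpGs were found in 11 of the 24 sequences (45.8%), beside 26.7% of all. Of these 22 genes 17 could be placed in the mm9 tables from the spacing of their CpGs. The 250 bases before the start are shown for 7 of them, with every CpG that had a read in both pools in capitals. Hoxa13, which patterns the distal limb and hindgut, lies at chr6:52210875-52211124 on the minus strand, and Hoxa5, a central gene that acts in lung development, at chr6:52154587-52154836 on the minus strand. Hoxb8 lies at chr11:96142969-96143218 and Hoxd12, a posterior limb gene, at chr2:74512820-74513069, both on the plus strand. These 4 are shown as the promoters with the most CpGs read in both pools.
Hoxa13: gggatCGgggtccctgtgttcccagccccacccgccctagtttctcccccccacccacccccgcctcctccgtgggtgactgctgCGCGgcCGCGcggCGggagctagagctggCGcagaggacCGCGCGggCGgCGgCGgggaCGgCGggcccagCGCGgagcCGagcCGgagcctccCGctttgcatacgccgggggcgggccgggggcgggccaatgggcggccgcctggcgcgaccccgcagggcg
Hoxa5: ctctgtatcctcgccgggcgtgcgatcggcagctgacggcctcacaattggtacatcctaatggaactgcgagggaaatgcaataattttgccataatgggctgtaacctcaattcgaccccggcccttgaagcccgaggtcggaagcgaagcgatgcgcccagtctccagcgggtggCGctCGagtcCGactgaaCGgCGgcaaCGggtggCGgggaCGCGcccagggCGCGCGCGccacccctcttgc
Hoxb8: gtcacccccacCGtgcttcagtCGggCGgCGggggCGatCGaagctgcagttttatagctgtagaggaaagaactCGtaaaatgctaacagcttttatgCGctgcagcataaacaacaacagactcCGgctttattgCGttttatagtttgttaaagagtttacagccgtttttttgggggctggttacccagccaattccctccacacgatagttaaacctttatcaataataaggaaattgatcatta
Hoxd12: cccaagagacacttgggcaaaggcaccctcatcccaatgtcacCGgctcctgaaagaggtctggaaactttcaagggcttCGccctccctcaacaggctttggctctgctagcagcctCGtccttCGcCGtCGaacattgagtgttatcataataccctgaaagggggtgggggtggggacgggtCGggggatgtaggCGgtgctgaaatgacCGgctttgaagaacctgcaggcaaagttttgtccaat
Hoxb4 and Hoxd8, both central genes, are shown because the promoter held a CpG with 2 methylated reads in 1 pool. They lie on the plus strand at chr11:96179331-96179580 and chr2:74542422-74542671.
Hoxb4: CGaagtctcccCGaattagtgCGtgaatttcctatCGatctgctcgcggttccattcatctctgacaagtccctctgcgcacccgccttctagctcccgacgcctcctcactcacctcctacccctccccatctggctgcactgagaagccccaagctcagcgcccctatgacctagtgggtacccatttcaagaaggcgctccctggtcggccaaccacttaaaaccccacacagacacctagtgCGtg
Hoxd8: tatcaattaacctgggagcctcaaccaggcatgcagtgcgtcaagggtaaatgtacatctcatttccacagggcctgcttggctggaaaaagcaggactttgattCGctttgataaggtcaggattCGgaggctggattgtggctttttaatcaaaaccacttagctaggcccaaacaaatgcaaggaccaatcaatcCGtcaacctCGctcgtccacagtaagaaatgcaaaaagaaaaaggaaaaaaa
Hoxd13, the last posterior gene of its cluster, lies at chr2:74506032-74506281 on the plus strand. It is shown as a dense promoter in which few CpGs were read in both pools. Over its 300 bases, 31 of 37 CpGs had a read in at least 1 pool.
Hoxd13: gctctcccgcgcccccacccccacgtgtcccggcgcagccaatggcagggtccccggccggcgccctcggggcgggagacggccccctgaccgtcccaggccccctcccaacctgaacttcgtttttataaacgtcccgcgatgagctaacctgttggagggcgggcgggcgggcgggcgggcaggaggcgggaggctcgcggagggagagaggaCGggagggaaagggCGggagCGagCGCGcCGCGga

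Few reads at these CpGs were methylated. The Hoxa13 stretch holds 35 CpGs, of which 20 were read in both pools, with 1 methylated read of 51 in WT and 1 of 37 in Tet1-null. In the Hoxa5 stretch 13 of 28 CpGs were read in both pools, with 1 methylated read of 13 and 0 of 23. In that of Hoxb8 10 of 12 were read in both, with 1 of 14 and 0 of 34. In that of Hoxd12 it was 9 of 10, with 1 of 12 and 0 of 29. In the Hoxd13 stretch only 7 of 31 CpGs were read in both pools, all in its last bases. They had 0 methylated reads of 7 and 0 of 16. Both methylated Tet1-null reads of the Hoxb4 stretch fell on its last CpG (chr11, position 96179577), where 2 of 5 reads were methylated and the single WT read was not. In the CpG-poor Hoxd8 stretch the WT pool had 2 methylated reads of 5, both at chr2 position 74542548, and the Tet1-null pool 0 of 5.

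Methylation of the 4 clusters was about 2% in both pools. In WT, 54 of 2580 reads were methylated in HoxA (2.09%), 59 of 3129 in HoxB (1.89%), 46 of 2312 in HoxC (1.99%) and 51 of 2105 in HoxD (2.42%). In Tet1-null the counts were 55 of 3325 in HoxA (1.65%), 66 of 4378 in HoxB (1.51%), 54 of 3074 in HoxC (1.76%) and 52 of 2778 in HoxD (1.87%). HoxD had the highest and HoxB the lowest level in both pools, but the Wilson intervals of all 4 clusters overlapped within each pool. Over these sites the Tet1-null level was the lower one in each cluster. The difference was -0.439 percentage points in HoxA (interval -1.17 to 0.253), -0.378 in HoxB (-1.01 to 0.207), -0.233 in HoxC (-1.004 to 0.491) and -0.551 in HoxD (-1.42 to 0.262). Each of these intervals included 0. The direction did not hold in every cluster at higher depth. Over sites that both pools read 2 times or more, HoxA was at 0.00506 points and HoxC at 0.104, and over sites that both read 3 times or more, HoxC was at 0.593 and HoxD at 2.06 (0.523 to 3.74). With each site given equal weight, the differences were -0.103 points in HoxA, -0.294 in HoxB, -0.521 in HoxC and -1.05 in HoxD.

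Summed over the clusters, 210 of 10126 WT reads (2.07%, interval 1.81 to 2.37) and 227 of 13555 Tet1-null reads (1.67%, 1.47 to 1.90) were methylated, a difference of -0.399 points (-0.758 to -0.0521, Newcombe). The mitochondrial genome, chrM, was taken as the background of reads that stay unconverted. Whether it gives that background for nuclear sites was not tested, and its 241 sites had mean depths of 138 and 262 reads. The chrM level was 1.66% in WT and 1.29% in Tet1-null, a difference of -0.371 points (-0.537 to -0.211). The clusters were 0.417 points (0.121 to 0.742) above chrM in WT and 0.389 points (0.167 to 0.634) above it in Tet1-null. With each pool's chrM level subtracted, a step added after seeing the data, the difference between the pools over the clusters was -0.0285 points. Without 1 HoxD window described below, left out after its values were seen, the difference without that subtraction was -0.302 points, with an interval that included 0 (-0.657 to 0.0408). It was -0.0592 points (-0.514 to 0.383) over sites that both pools read 2 times or more, and 0.189 points (-0.453 to 0.813), in the other direction, over those that both read 3 times or more.

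**Figure D1:**
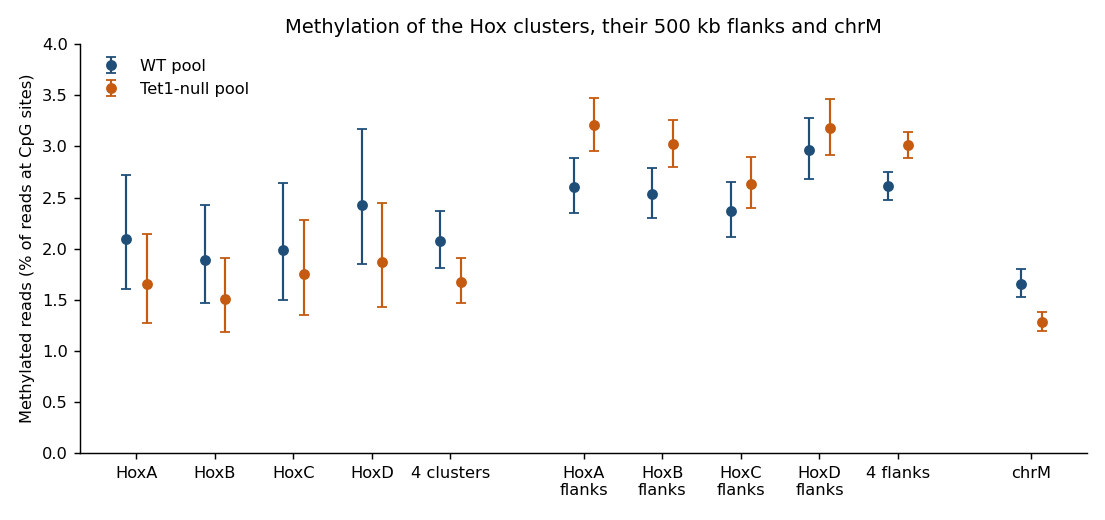
Methylated reads as a percentage of reads at CpG sites read in both pools, for each Hox cluster, the 500 kb flanks of each and chrM. Points are pool levels and bars Wilson 95% intervals. All 4 clusters lie lower in the Tet1-null pool and all 4 flanks higher, and chrM fell from 1.66% to 1.29%.

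Summed over all CpG densities, the sequence around the clusters differed in the other direction. The flanks together held 1391 methylated reads of 53249 in WT (2.61%) and 2127 of 70570 in Tet1-null (3.01%), a difference of 0.402 points (0.216 to 0.586). The flank difference was 0.602 points at HoxA (0.223 to 0.975), 0.487 at HoxB (0.146 to 0.824), 0.269 at HoxC (-0.103 to 0.633) and 0.215 at HoxD (-0.194 to 0.618). The autosomes as a whole went from 3.33% to 3.95%. Inside the clusters the level was below that of the flanks, with a difference of -0.538 points in WT (-0.833 to -0.214) and -1.34 points in Tet1-null (-1.58 to -1.08). The change in the clusters minus that in the flanks was -0.801 points over all 4 (-1.20 to -0.407). It was -1.04 points for HoxA (-1.86 to -0.252) and -0.865 for HoxB (-1.58 to -0.188), while the intervals for HoxC (-0.502, -1.35 to 0.312) and HoxD (-0.766, -1.72 to 0.144) included 0. As a further step added after seeing the data, the flanks were weighted to the clusters' own mix of CpG densities. Their levels were then 2.95% in WT and 2.69% in Tet1-null. That difference of -0.263 points had the same direction as the clusters, and the change in clusters minus flanks was -0.137 points. The densest classes in this weighting held only 29 and 12 flank windows of 1 kb, and no interval was worked out. Without the weighting, over sites that both pools read 2 times or more, clusters minus flanks was -0.483 points (-0.993 to 0.0163). Over those that both read 3 times or more it was -0.0733 points (-0.794 to 0.633), and the flank difference itself was 0.262 points (-0.0681 to 0.591).

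Just outside the spans the WT level was below that inside them and the Tet1-null level above it. In the first 25 kb outside, 1.79% of WT reads (interval 1.36 to 2.36) and 2.26% of Tet1-null reads (1.83 to 2.78) were methylated. Inside the spans the levels were 2.07% (1.81 to 2.37) and 1.67% (1.47 to 1.90), with overlapping intervals in each pool. From 25 to 50 kb the levels were 2.31% and 2.10%, and from 50 to 100 kb 3.39% and 3.19%. Farther out they were 2.64% and 3.05% from 100 to 200 kb, 2.56% and 3.36% from 200 to 300 kb, 2.80% and 2.95% from 300 to 400 kb, and 2.38% and 3.07% from 400 to 500 kb. Within the spans, 53 bins of 10 kb, none with fewer than 93 reads in either pool, ranged from 0% to 4.93% in WT (median 2.04%) and from 0% to 4.60% in Tet1-null (median 1.44%). The Tet1-null level was the lower one in 29 bins and the higher one in 24. No bin of any cluster came near the highest flank bins shown, at chr6:52290000-52309999 beyond HoxA, where 29 of 147 (19.7%) and 23 of 91 (25.3%) WT reads were methylated and 32 of 169 (18.9%) and 15 of 85 (17.6%) Tet1-null reads.

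**Figure D2:**
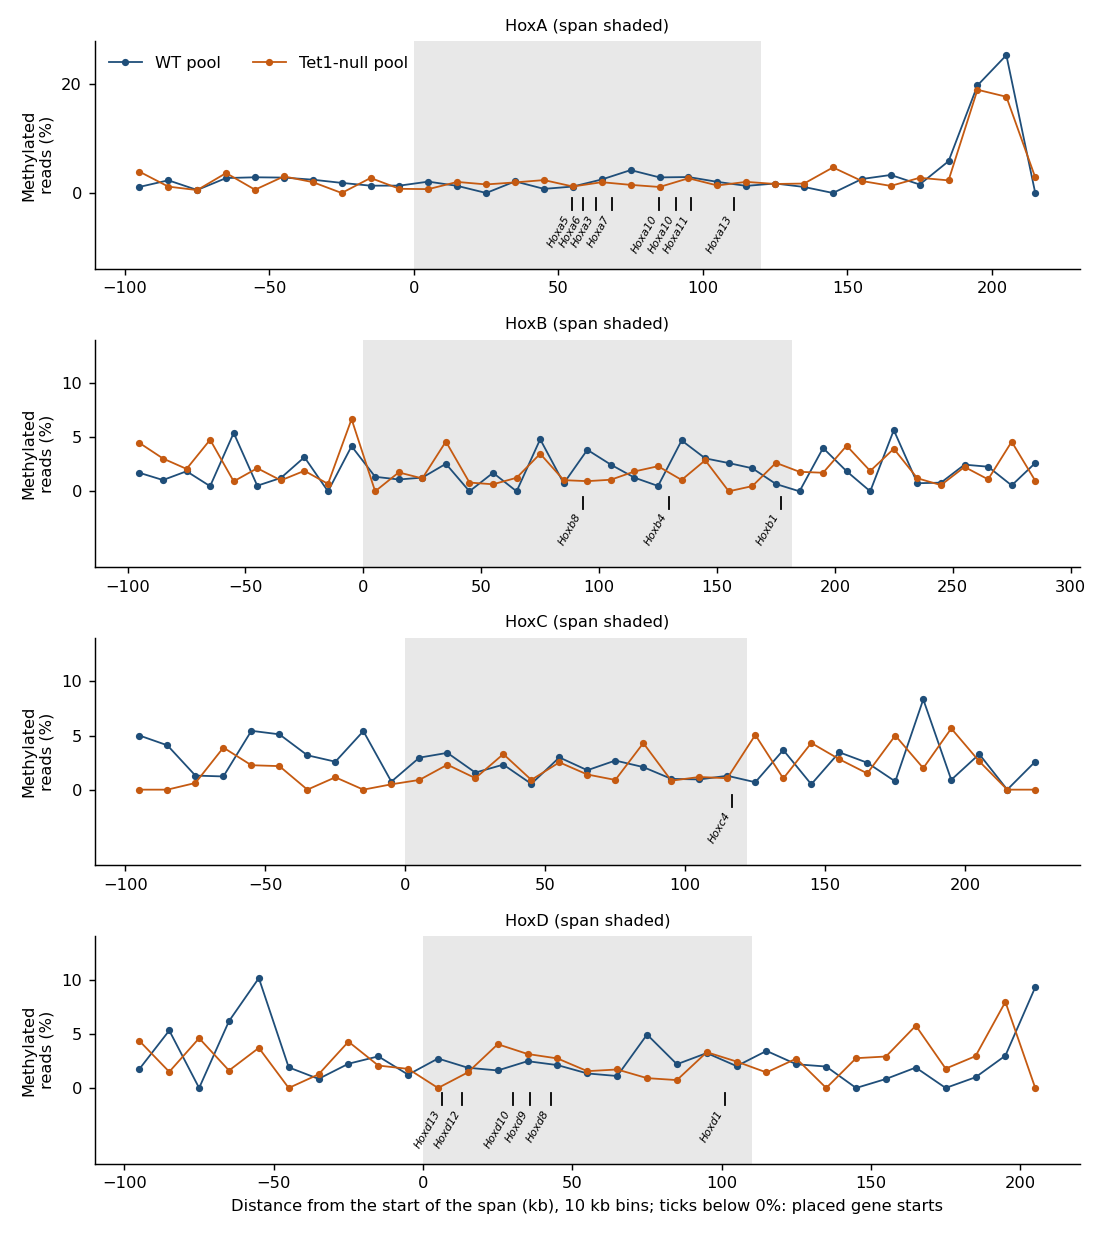
Methylated reads (%) in 10 kb bins along each cluster (shaded) and 100 kb on each side, against distance from the start of the span in kb, with placed gene starts as ticks below 0%. The axis of the HoxA panel is longer than the others. Bins inside the spans stay at or below 4.93% in both pools, while bins beyond the HoxA span reach 25.3%.

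Methylated reads in the clusters lay mostly as single reads at different sites in the 2 pools. With mean depths of 1.98 reads in WT and 2.66 in Tet1-null, and low levels, this pattern says little about whether the pools differ. No methylated read was seen at 4929 of the 5105 sites in WT (96.6%, Wilson interval 96.0 to 97.0) and at 4922 in Tet1-null (96.4%, 95.9 to 96.9). At equal depth, with the deeper pool thinned to the shallower at each site, the shares were 97.1% and 97.5% in the clusters and 96.0% and 95.3% in the flanks. Of the 176 sites with a methylated read in WT, 142 had exactly 1, and of the 183 in Tet1-null, 144 had exactly 1. In the flanks it was 895 of 1131 sites in WT and 1217 of 1644 in Tet1-null, so most were single reads there too. Only 2 sites had a methylated read in both pools (0.0392% of sites), 1 in HoxA at chr6 position 52184335 and 1 in HoxD at chr2 position 74571309. In the flanks 150 of 23997 sites did (0.625%), and on the autosomes 1.18%. Sites with 2 or more methylated reads numbered 34 in WT and 39 in Tet1-null, of 5105, and 0 were in both. With so few such sites, an overlap of 0 says little about whether the pools differ. The same count was not made for the flanks or the genome. The strongest single site was at chr2 position 74527611 in HoxD, with 5 methylated reads of 6 in Tet1-null and 0 of 1 in WT. It was followed by 2 HoxC sites, at chr15 positions 102761228 and 102829102, each with 3 of 4 in Tet1-null and 0 of 1 in WT. These 3 sites were chosen after their values were seen.

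Tested in 1 kb windows, no place in the clusters was called as different. A window entered with 5 or more sites read in both pools and 20 or more reads in each pool, and was called at an adjusted p under 0.05 (two-sided Fisher's exact test on the reads, adjusted by Benjamini and Hochberg's method over 278113 windows of the genome) and a difference of 20 points or more. Of the 531 Hox windows with listed sites 176 could be tested, 44 in HoxA, 54 in HoxB, 37 in HoxC and 41 in HoxD. Of these 0 were called, where 0.155% of all windows tested were. At an unadjusted p under 0.05 there were 3 of 176, beside 4.2% of all windows, and all 3 were lower in Tet1-null. Over all windows 2.59% passed that threshold as higher and 1.61% as lower. The flanks had 0 calls among 728 windows and 25 at an unadjusted p under 0.05, 14 higher and 11 lower. For a call as higher, a Hox window would have needed a Tet1-null level of 41.5% at the median (20.2% to 76.2%). Smaller gains in single windows were therefore not detectable at this depth. A call as lower needs a WT level of 20% or more, which only 1 of the 176 tested Hox windows had. The count of 0 calls therefore says little about falls.

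Few Hox windows were highly methylated. A level of 10% or more was reached by 2 Hox windows in WT and 0 in Tet1-null, beside 8.95% and 12.3% of all windows tested and 5.77% and 7.69% of those in the flanks. No methylated read in either pool was found in 54 Hox windows (30.7%), beside 30.4% of all windows and 32.8% of those in the flanks. The Tet1-null level was higher in 56 Hox windows, lower in 65 and equal in 55. Over all windows 38.9% were higher and 30.4% lower.

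The window with the highest WT level was chr2:74571001-74572000 in HoxD, between the placed starts of Hoxd8 and Hoxd1. It had 11 methylated reads of 52 in WT (21.2%) and 1 of 48 in Tet1-null (2.08%; unadjusted p = 0.00414 and adjusted p = 0.462, Fisher's exact test). Its 11 methylated WT sites lay within 236 bp, from 74571289 to 74571525, where the WT counts over 15 sites summed to 31 and the Tet1-null pool had 1 methylated of 22. No site of the window had more than 3 WT reads, so few fragments lie behind these 11 observations. Without this window, a choice made after its values were seen and one that could only move the difference towards 0, the HoxD difference was -0.0802 points (-0.904 to 0.695) in place of -0.551.

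The next window by WT level was chr6:52173001-52174000 in HoxA, with 4 methylated reads of 38 (10.5%) in WT and 1 of 46 in Tet1-null. Then came 3 windows that tied both by WT level and by fall, from 9.52% to 0%. They were chr6:52109001-52110000 in HoxA, with 4 of 42 and 0 of 69 (unadjusted p = 0.0187 and adjusted p = 0.877, Fisher's exact test), chr11:96151001-96152000 in HoxB, with 2 of 21 and 0 of 27, and chr15:102748001-102749000 in HoxC, with 2 of 21 and 0 of 21. The third window at an unadjusted p under 0.05, chr15:102765001-102766000 in HoxC, named here after its values were seen, had 4 of 69 and 0 of 79 (unadjusted p = 0.0450, Fisher's exact test). In the other direction, chr15:102786001-102787000 in HoxC had 0 methylated reads of 34 in WT and 4 of 43 in Tet1-null (9.30%), at sites spread over 608 bp (unadjusted p = 0.125, Fisher's exact test). It was followed by chr15:102856001-102857000 in HoxC, with 0 of 20 and 2 of 25, and chr6:52195001-52196000 in HoxA, with 0 of 21 and 2 of 32. The window at chr2:74521001-74522000 in HoxD had 1 of 24 and 2 of 23. Each of the windows other than the first rested on 4 methylated reads or fewer in either pool.

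The clusters are unusually dense in CpGs, and levels varied with that density. Positions listed in either table numbered 19.9 per kb in the clusters and 9.74 per kb in the flanks. Windows with 40 or more such positions were 69 of the 531 Hox windows, beside 1.04% of flank windows and 0.581% of all windows. Dense sequence was also read less. The share of listed positions with a read in both pools was 47.9% in the clusters and 61.6% in the flanks, and inside the clusters it went from 65.0% in windows of 1 to 9 positions to 31.0% in those of 60 or more.

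In Hox windows of 1 to 9 positions the level was 1.73% in WT and 2.08% in Tet1-null, in those of 10 to 19 it was 1.85% and 1.66%, and in those of 20 to 39 it was 1.78% and 1.51%. The interval of the difference included 0 in each of these classes. In the 58 windows of 40 to 59 positions 57 of 1969 WT reads (2.89%) and 40 of 2546 Tet1-null reads (1.57%) were methylated, a difference of -1.32 points (-2.26 to -0.462). Leaving out the HoxD window of highest WT level gave -0.838 points (-1.73 to -0.0167). The flanks had a difference of the same sign in this class, from 3.16% to 1.15% (-2.02 points, -3.24 to -0.955), and all windows of the autosomes and X one of 0.134 points the other way, from 3.65% to 3.78%. In the 11 Hox windows of 60 or more positions the levels were 3.30% and 2.37% (difference -0.926, interval -3.24 to 1.31), beside 4.94% and 3.75% over all such windows.

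Compared at equal density, the clusters of the Tet1-null pool lay below the flanks in windows of fewer than 40 positions. Clusters minus flanks was -0.99 points at 1 to 9 positions (-1.57 to -0.233), -1.39 points at 10 to 19 (-1.81 to -0.870) and -1.62 points at 20 to 39 (-2.12 to -1.11). At 40 to 59 positions the clusters were 0.424 points above the flanks, with an interval that included 0 (-0.336 to 1.12). In WT it was -1.51 points at 20 to 39 positions (-2.12 to -0.880), and the intervals of the other classes included 0. All windows of 20 to 39 positions stood at 5.78% in WT and 6.90% in Tet1-null, where those of the clusters had 1.78% and 1.51%.

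**Figure D3:**
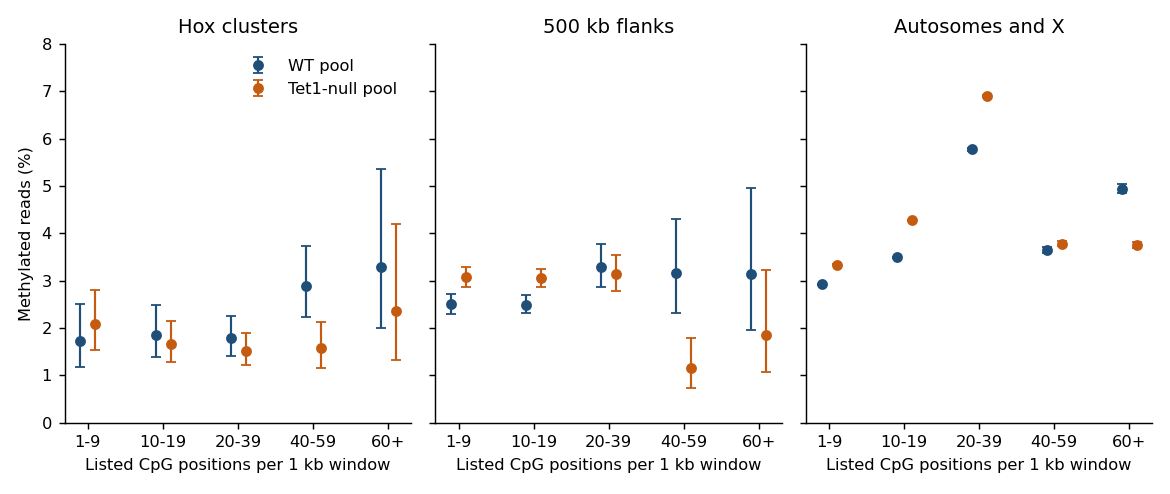
Methylated reads (%) by the number of CpG positions listed per 1 kb window, for the Hox clusters, their 500 kb flanks and all windows of the autosomes and X. Points are pool levels and bars Wilson 95% intervals. At 20 to 39 positions all windows reach 5.78% and 6.90%, while Hox windows stay at 1.78% and 1.51%.

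Around the gene starts themselves, reads were counted 500 bp to either side. Of the 38 members, 16 had no sequence in the promoter table, namely Hoxa4, Hoxb2, Hoxb3, Hoxb5, Hoxb6, Hoxb7, Hoxb9, Hoxb13, Hoxc5, Hoxc6 and Hoxc8 to Hoxc13. A further 5 were not placed. Hoxa2 and Hoxd3 found no match, Hoxa9 and Hoxd4 had fewer than 6 CpGs, and Hoxd11 had 1 sequence of each kind. The other 17 gave 18 starts, since Hoxa10 has 2, and 12 starts had enough sites and reads for the test. Of these 0 were called and 0 had an unadjusted p under 0.05 in Fisher's exact test, where 0.0385% and 3.04% of the 10403 starts tested in the genome did. A call as lower needs a WT level of 20% or more, and the highest among the 12 tested Hox starts was 6.67%. No fall at these starts could therefore be called. The level needed for a call as higher was not worked out for starts. With genome shares this small, 12 starts are too few for counts of 0 to set the Hox starts apart.

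Among the anterior genes, which pattern hindbrain and neck, Hoxa3 had 0 methylated reads of 20 in WT and 0 of 31 in Tet1-null. Its placed start, at position 52163066, lies among central genes, between the starts of Hoxa6 (52158671) and Hoxa7 (52168572). It is anterior by paralog group only, not by position. Hoxb1, which marks a single segment of the hindbrain, had 1 of 34 and 1 of 20. Hoxd1 had the highest WT level of the tested starts, with 3 of 45 in WT (6.67%, interval 2.29 to 17.9) and 1 of 65 in Tet1-null (1.54%, 0.272 to 8.21). Summed, the starts of these 3 anterior genes, that of Hoxa3 included, had 4 methylated reads of 99 and 2 of 116.

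The central genes, which act along the trunk, were as low. Hoxa5 had 1 of 35 in WT and 1 of 49 in Tet1-null, Hoxa6 1 of 22 and 0 of 24, and Hoxa7 1 of 12 and 0 of 14. Hoxb4, which is known for expanding blood stem cells, had 0 of 50 and 2 of 68, and Hoxb8 1 of 52 and 2 of 97. Hoxc4, the only HoxC start that could be placed, had 0 of 16 and 0 of 13, and Hoxd8 2 of 19 and 0 of 17. Hoxa7, Hoxc4 and Hoxd8 had too few reads for the test. The central starts together had 6 methylated reads of 206 and 5 of 282.

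The posterior genes pattern the lower body, the limbs and the genital tract. Hoxa10, needed for the uterus, had 4 of 81 in WT and 1 of 49 in Tet1-null at its start at position 52184938, and 0 of 21 and 1 of 15 at the one at 52190853. Hoxa11 had 2 of 40 and 2 of 54, and Hoxa13 1 of 76 and 2 of 67. Hoxd9 had 0 of 37 and 0 of 32, Hoxd10 0 of 20 and 0 of 17, Hoxd12 1 of 33 and 0 of 58, and Hoxd13 0 of 14 and 0 of 29. The second Hoxa10 start, Hoxd10 and Hoxd13 fell short of the test. Together these starts had 8 methylated reads of 322 and 6 of 321. The summed level of all 3 paralog classes was thus below 5% in both pools. The upper bounds of the intervals passed 5% for the anterior starts (9.93% in WT and 6.07% in Tet1-null) and for the central starts in WT (6.21%).

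**Figure D4:**
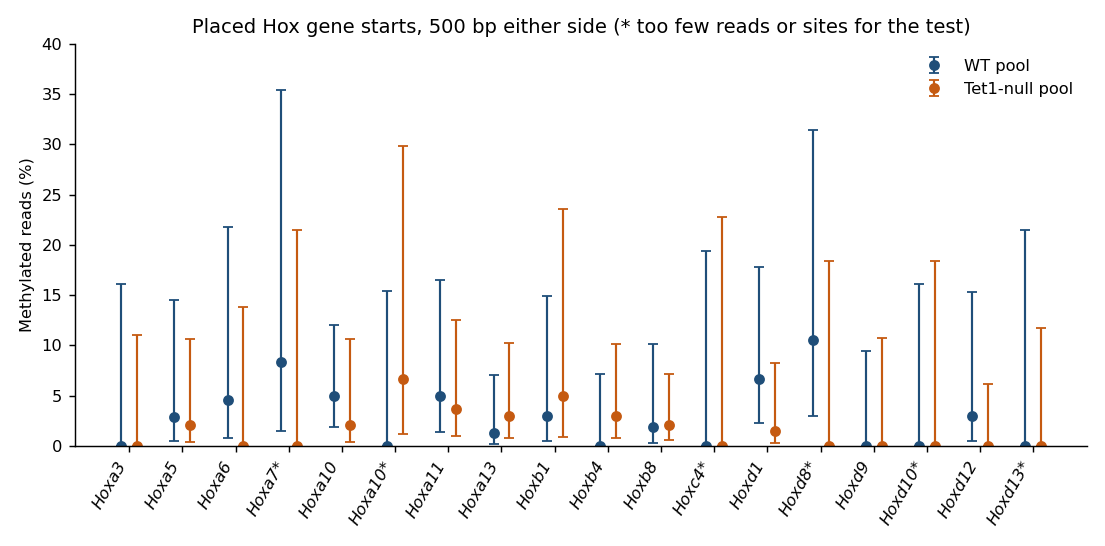
Methylated reads (%) within 500 bp of each placed Hox gene start in both pools, ordered by cluster and paralog group, with Wilson 95% intervals as bars and an asterisk where reads or sites were too few for the test. No WT point lies above 10.5% (Hoxd8) and no Tet1-null point above 6.67% (Hoxa10), and the bars of the pools overlap at every start.

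Over all 18 placed starts, 18 of 627 WT reads (2.87%) and 13 of 719 Tet1-null reads (1.81%) were methylated, a difference of -1.06 points (-2.85 to 0.576). The placed starts of the genome, with overlapping starts counted each, stood at 2.55% and 2.62%. The median level over tested starts was 2.90% in WT and 2.04% in Tet1-null for the Hox genes, beside 1.11% and 1.23% for all tested starts. Of the 12 tested Hox starts, 4 were higher in Tet1-null, 6 lower and 2 equal. By cluster, the HoxA starts had 10 methylated reads of 307 and 7 of 303, the HoxB starts 2 of 136 and 5 of 185, and the HoxD starts 6 of 168 and 1 of 218. The HoxD difference of -3.11 points (-7.13 to -0.269) was the only one whose interval left out 0, and it was not adjusted for the clusters compared.

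Genes that work with the Hox genes were read at their starts in the same way. None of those tested was called. The highest WT level among them was 10%, at a start of Jarid2, so no fall of 20 points could be called there either. Of the cofactors that bind DNA with Hox proteins, 3 of 7 were placed and all 3 tested, namely Meis1 (2 methylated reads of 41 in WT and 0 of 45 in Tet1-null), Meis2 (0 of 46 and 5 of 50) and Meis3 (0 of 47 and 0 of 91). The caudal genes, which switch on the clusters in the early embryo, had 2 of 3 placed and tested, with 1 methylated read of 131 and 1 of 115. The neighbouring and ParaHox genes Evx1, Evx2, Gsx1, Gsx2 and Pdx1 were all placed and 2 were tested, with 1 of 165 and 8 of 318 over the 5. Evx2, which borders HoxD, had 0 of 30 and 1 of 55. Of the 9 Polycomb and Trithorax genes 8 were placed at 9 starts and 3 starts tested, namely Ezh2 (0 of 50 and 0 of 39), Suz12 (0 of 25 and 0 of 22) and 1 of Jarid2 (4 of 40 and 0 of 30).

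As a check of the cells, the same was done for germ cell and gonadal somatic markers, although methylation of a start is not expression and does not show which cells were sampled. Of 6 germ cell markers 4 were placed and 4 of their 5 starts tested. Of these 0 were called and 2 had an unadjusted p under 0.05 in Fisher's exact test, beside 3.04% of all starts tested. The 2 starts of Pou5f1 carried 982 of the 1089 WT reads and 1164 of the 1289 Tet1-null reads at these starts, with 63 and 108 of the 66 and 124 methylated ones. The other placed markers had 3 methylated reads of 107 and 16 of 125. The starts at that threshold were 1 of the 2 of Pou5f1, the pluripotency factor Oct4, with 48 of 460 and 87 of 559, and that of Dazl, a germ cell RNA-binding protein, with 0 of 37 and 7 of 51. This Pou5f1 start had 30 sites, each read far more often on average than the autosomal mean of 2.25 reads in WT and 2.96 in Tet1-null. The cause of that depth was not tested. None of the 4 somatic markers was placed. The lesion at Tet1 was not checked here.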

How the data were processed

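DNA was fragmented and tagged with Tn5, bisulfite-converted with a Sigma or a Zymo kit, amplified and sequenced on an Illumina HiSeq instrument, per the labels' protocols. The authors deposited 1 table per genotype, with libraries pooled, that gives for each CpG site read the methylation level as a fraction and the count of reads. The product of level and reads came out whole (within 0.0005 per read) at 100% of sites and was taken as the methylated reads. The WT table listed 13730600 sites with 30386353 reads and that of Tet1-null had 16372728 sites and 46716079 reads. Over shared Hox sites the mean depth was 1.98 and 2.66 reads, beside 2.22 and 2.94 in the flanks. Per the submitters' processing notes, positions are on mm9 and bedtools was among the tools. The aligner is not given in the sources used here, nor is how duplicates were treated. A read filter that the authors deposited drops reads with over 1.2% of non-CpG C, which can lower every level, that of chrM included. Without molecular identifiers, PCR copies cannot be told from separate molecules, so all intervals cover counting error only. Kits and sequencing runs were mixed within each pool and could not be separated. The runs were not shared alike, since 1 run held a WT library only.

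Reads were summed over CpG sites that both tables list, with Wilson intervals for levels, Newcombe intervals for differences and their combination (MOVER) for differences of differences. Windows and gene starts were tested with Fisher's exact test over the whole genome, which was tested on simulated data. This test was used since the tables hold counts but no replicates. Software was Python 3.11.15, numpy 2.4.6, pandas 2.3.3, scipy 1.17.1, numba 0.67.0 and matplotlib 3.10.9. Since no genome of the build was in use, promoters with 6 or more CpGs were placed by finding the same CpG spacing among listed sites, with 50% or more of the CpGs listed and no listed site between them. This placed 15584 of 32619 sequences uniquely, 99.9% of neighbouring pairs kept their order, and 127 of 18519 mirrored sequences found a match. Printed positions follow the tables and may be off by 1 base, since they were not compared with a genome. Windows named were the 3 highest in each pool and the 3 with the largest difference in each direction, and every placed member was named. Members, spans and gene lists were chosen with earlier results of these data known. Alternatives varied sites, depth, window size, minimums, flank width and chrM background.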

Additional observations from a re-analysis of the deposited data

How the results depend on the processing

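The depth of about 2 to 3 reads per site limits what single sites and windows can show. Over sites that both pools read 3 times or more, the summed cluster difference changed sign, to 0.189 points, the clusters minus flanks difference was -0.0733, HoxC was at 0.593, HoxD at 2.06 (0.523 to 3.74, WT 0.443% and Tet1-null 2.50%) and the difference in the share of sites without a methylated read was -1.61 points. Those sites numbered 682 of 5105. With 2 or more reads clusters minus flanks was -0.483 (-0.993 to 0.0163) and the summed difference was -0.0592 (-0.514 to 0.383), and with spans narrowed by 10 kb at each end -0.377 (-0.771 to 0.00442). Subtracting chrM, matching flanks for density and leaving out the HoxD window were chosen after seeing the data. With chrM subtracted, the summed difference was -0.0285 and that of the flanks 0.772. With flanks at the clusters' density mix, clusters minus flanks was -0.137. The cause of these shifts was not tested. With 1000 bp on either side, Hoxb8 changed sign to -0.311 points and Hoxb1 to -0.189. Over all sites each table lists, the HoxD difference was -0.710 (-1.42 to -0.0696). Hox windows called stayed at 0 under all 6 alternatives and Hox starts at 0 under all 5. Over all listed sites, 7 of 230 Hox windows had an unadjusted p under 0.05 in Fisher's exact test. The share of all windows at that p in this setting was not counted, so the 7 cannot be placed against it. Over all windows the calls numbered 598 of 372073 with all listed sites (0.161%), beside 431 of 278113 in the main setting (0.155%). With 10 sites and 40 reads they numbered 217 of 25363 (0.856%), and only 49 Hox windows were tested there. No paired analysis was possible because each table pools the libraries of a genotype, and for the same reason no library could be left out.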
